A study of Mus musculus with 8 samples.

Results

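The genes described here encode the nuclear subunits of respiratory complexes II, III, IV and V. They were chosen by symbol (Sdha to Sdhd, symbols that start with Uqcr, Cyc1, the numbered Cox4 to Cox8 subunits, and symbols that start with Atp5) among probe sets annotated with exactly 1 symbol. A gene with several probe sets was read by the one with the highest mean. This gave 47 of the 19938 genes measured, namely 4 of complex II, 9 of complex III, 17 of complex IV and 17 of complex V. Cox7c was not analysed here because its probe sets carried a second symbol.

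Expression was measured with 1 Affymetrix array per heart in mice aged 9 weeks on a C57Bl6 background. The 4 groups were S105A mice given PE (animals 7 and 8), WT mice given PE (3 and 4), untreated S105A mice (5 and 6) and untreated WT mice (1 and 2). S105A mice carried, on both alleles, GATA4 with alanine in place of a serine; GATA4 is a transcription factor of heart muscle. PE, for which the labels write pseudoephedrine, came from a subcutaneous osmotic pump during 5 days, with a daily dose of 100 mg/kg. Control titles say untreated and the protocol says saline, and the tissue is given both as ventricle and as whole heart. The log2 medians of the arrays ran from 6.18 to 6.23, and the number of arrays limits the precision. Each array is named by its animal.

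Complex II, succinate dehydrogenase, passes electrons from succinate to ubiquinone, complex III passes them on to cytochrome c, and complex IV passes them to oxygen. Complexes III and IV pump protons across the inner mitochondrial membrane, and complex V, the ATP synthase, uses that gradient to make ATP. Heart muscle contracts almost without pause on ATP made in this way, and its cells are packed with mitochondria. Several complex IV subunits exist as a striated-muscle isoform and an isoform of most tissues.

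The promoters of 4 genes are printed because they belong to complex IV isoforms whose values are set against each other below. They are those of the striated-muscle genes Cox7a1 and Cox8b and the ubiquitous genes Cox8a and Cox6a1. Each runs from 250 bases before to 50 bases after the gene's start, as given by RefSeq for GRCm38.p6, on the strand of the gene. Cox7a1 lies on the plus strand at chr7:30183921-30184220, Cox8b on the minus strand at chr7:140900397-140900696, Cox8a on the minus strand at chr19:7217567-7217866 and Cox6a1 on the minus strand at chr5:115348909-115349208. Capitals mark matches, on either strand, to any of 6 motifs described next.
Cox7a1: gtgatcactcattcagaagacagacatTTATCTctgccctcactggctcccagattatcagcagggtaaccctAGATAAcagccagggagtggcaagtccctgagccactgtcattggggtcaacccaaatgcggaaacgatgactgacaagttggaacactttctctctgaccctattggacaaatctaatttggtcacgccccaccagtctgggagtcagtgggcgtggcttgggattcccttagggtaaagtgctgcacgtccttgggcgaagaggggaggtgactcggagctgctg
Cox8b: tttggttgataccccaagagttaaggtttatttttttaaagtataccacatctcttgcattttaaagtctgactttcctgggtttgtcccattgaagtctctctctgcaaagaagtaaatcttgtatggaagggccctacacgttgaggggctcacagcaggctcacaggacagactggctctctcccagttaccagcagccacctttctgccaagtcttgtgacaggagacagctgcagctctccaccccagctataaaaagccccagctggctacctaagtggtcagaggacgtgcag
Cox8a: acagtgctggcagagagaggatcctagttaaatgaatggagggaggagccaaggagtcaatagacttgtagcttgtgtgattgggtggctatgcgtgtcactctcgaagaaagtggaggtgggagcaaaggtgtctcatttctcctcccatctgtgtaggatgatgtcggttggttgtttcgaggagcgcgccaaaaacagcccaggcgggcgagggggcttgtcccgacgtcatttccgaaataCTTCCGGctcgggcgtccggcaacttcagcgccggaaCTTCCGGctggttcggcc
Cox6a1: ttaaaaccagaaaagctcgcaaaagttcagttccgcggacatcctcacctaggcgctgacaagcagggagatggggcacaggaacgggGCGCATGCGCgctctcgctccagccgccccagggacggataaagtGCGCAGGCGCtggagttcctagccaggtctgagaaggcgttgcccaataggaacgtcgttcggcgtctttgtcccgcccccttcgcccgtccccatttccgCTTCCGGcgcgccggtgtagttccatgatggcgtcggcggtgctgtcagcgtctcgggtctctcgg

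The 6 motifs were searched on both strands with overlaps allowed. Each is a simple letter pattern for the site of a factor known to act on mitochondrial or heart genes. The RefSeq table used here gave 38 promoters for 35 of the 47 genes. The motif CCGGAAG of ETS factors, among them NRF-2, was present in 13 of the 38 (34.2%), against 8.9% of all 32851 promoters of this length. The palindromic NRF-1 motif was present in 10 (26.3%, against 4.6%). The half-site of estrogen-related receptors, AAGGTCA, was present in 5 (13.2%, against 4.7%). The YY1 motif AAGATGG was present in 3 of these promoters (7.9%, against 6.3%). The GATA motif AGATAA was likewise present in 3 of these promoters (7.9%, against 11.2%), and the MEF2 motif in 1 (2.6%, against 3.7%). Of the printed promoters, that of Cox7a1 held 2 GATA matches, that of Cox8a 2 ETS matches, and that of Cox6a1 1 ETS and 2 NRF-1 matches. In Cox8b none of the 6 was found. None was found either in the promoter, not printed, of Cox7a2, the ubiquitous isoform set against Cox7a1 below. A match is a run of letters and does not show that a factor binds there. The lack of a match does not show that a factor has no site there.

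Most of these genes were among the brightest on the array. By mean level, 39 of the 47 lay at or above the 95 percentile of all genes and 42 at or above the 90 percentile. The other 5 were Cox7a2l (83.7 percentile), Cox4i2, an isoform known from lung and oxygen-poor cells (66.0 percentile), and the testis isoforms Cox8c (37.2), Cox6b2 (34.3) and Cox7b2 (5.6). Probe sets differ in brightness for a given amount of RNA, so these percentiles do not order the genes by amount. All 47 were tested without a filter on level.

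Array 3, of a WT heart given PE, stood apart from the other 7, and array 7, of an S105A heart given PE, did so to a lesser degree. Of the 47 genes, 42 had their lowest value in array 3, against 25.9% of all genes. The 8 fibroblast markers averaged 11.30, 10.15, 10.94 and 10.15 in PE arrays 3, 4, 7 and 8, against 9.15 to 9.28 in the untreated arrays. The 8 macrophage markers averaged 9.81, 9.04, 9.53 and 8.85 in the PE arrays, against 8.21 to 8.61 in the untreated arrays. The 10 cardiomyocyte markers averaged 13.10, 13.30, 13.27 and 13.28 in the PE arrays, against 13.27 to 13.28 in the untreated arrays. This mean hides unequal moves with PE. The 5 lower markers were Myl2 (-0.20), Tnni3 (-0.20), Myh6 (-0.16), Pln (-0.13) and Ryr2 (-0.12). Of the 5 higher, Mybpc3 rose by 0.36, and Actn2 (0.031), Tnnt2 (0.014), Tnnc1 (0.012) and Ttn (0.001) hardly moved. In array 3 Myl2 measured 12.93, against 13.46 to 13.62 in the untreated arrays, and Mybpc3 13.42, against 12.68 to 12.84. Tnni3 (13.28), Myh6 (13.065), Pln (13.38), Ryr2, Tnnc1 and Ttn also lay below all their untreated arrays in array 3. Tnnt2 lay above its untreated arrays there, and Actn2 within their range. The 2 erythroid markers measured averaged 6.45, 6.84, 6.98 and 7.17 in the PE arrays, against 7.44 to 7.99 in the untreated arrays. The 4 smooth muscle markers averaged 9.98, 8.99, 9.39 and 8.85 in the PE arrays, against 8.65 to 8.89 in the untreated arrays. Their log2 differences between PE and untreated arrays were 1.41 for Cnn1, 0.77 for Tagln, 0.048 for Acta2 and -0.17 for Myh11. The 5 atrial markers averaged 7.10 to 7.503 in the PE arrays, against 6.84 to 6.99 in the untreated arrays. That rise lay mostly in Nppa, with a log2 difference between PE and untreated arrays of 2.28. Those of the others were 0.29 for Myl4, -0.019 for Sln, -0.12 for Bmp10 and -0.16 for Myl7. The 4 markers of brown fat, a tissue that also uses Cox7a1 and Cox8b, averaged 6.45, 6.06, 6.14 and 6.04 in the PE arrays, against 5.87 to 6.15 in the untreated arrays. Among them the log2 differences between PE and untreated arrays were 0.67 for Dio2, 0.23 for Cidea, 0.008 for Elovl3 and -0.16 for Ucp1. In whole tissue, fewer heart muscle cells and less RNA per cell cannot be told apart. The 7 endothelial markers averaged 9.74, 10.09, 9.97 and 10.19 in the PE arrays, against 10.11 to 10.36 in the untreated arrays. The part of these other cells in the results below was not tested.

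PE was first compared with no treatment over both genotypes. The log2 difference was below 0 for 45 of the 47 genes, against 56.0% of all genes, and the median was -0.25, against -0.017 over all genes. None of the 47 passed an adjusted p of 0.05 by limma, where 0.00502% of all genes did. At an unadjusted p under 0.05, 11 were lower, against 7.44% of all genes, and 0 were higher, against 9.31%. That count moved with the fit, between 0 and 39 over single arrays left out, to 4 without arrays 3 and 7 and to 25 with array weights. In 19 of the 47 (40.4%) all 4 PE arrays lay below all 4 untreated arrays, against 6.15% of all genes, and in 0 did they lie above, against 6.70%. Leaving out arrays can only keep or raise this count, so it could not fall. Without arrays 3 and 7 it was the same 19, where the share of all genes was 8.97%. The median of the 47 was then -0.079, and 46 were below 0. Without array 4 alone, 37 of the 47 passed by limma, as did 4137 of all genes.

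**Figure D1:**
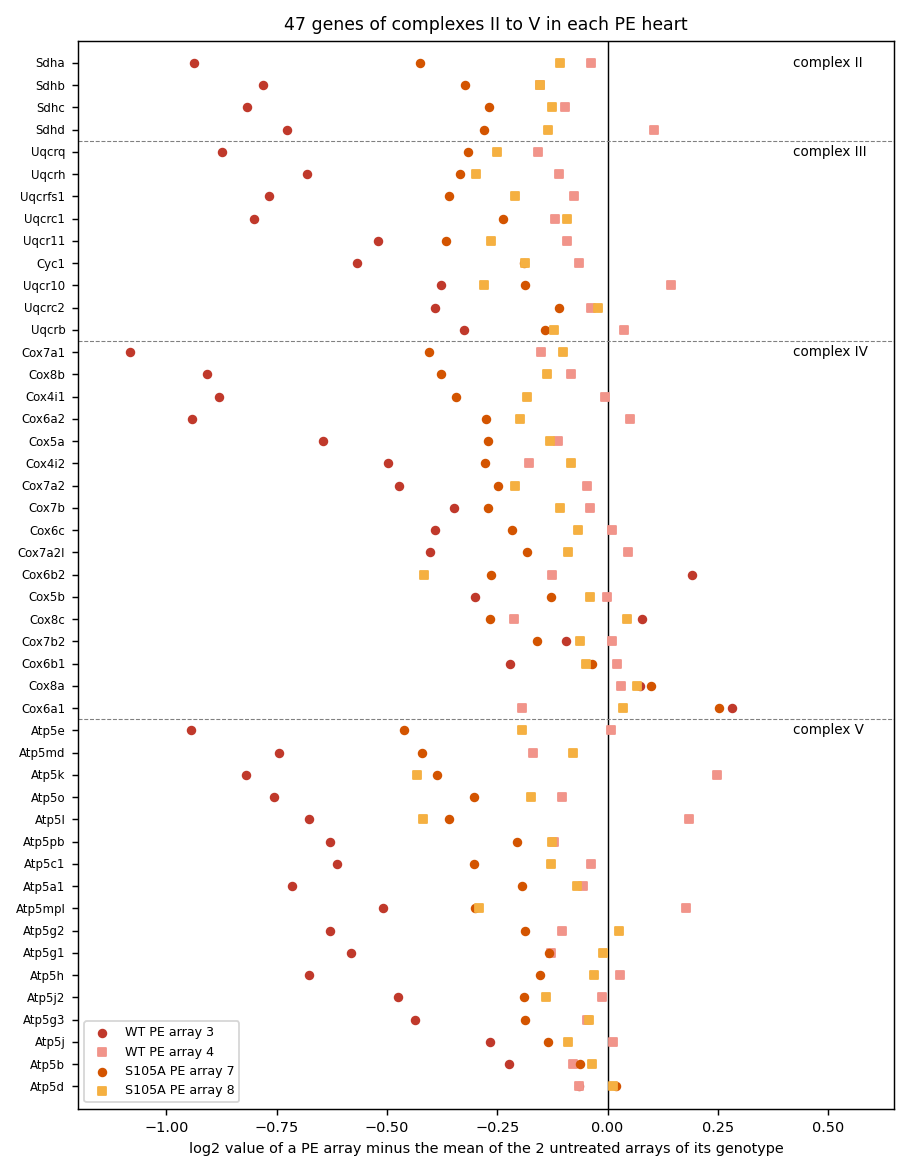
Each of the 47 genes in the 4 PE arrays, as the log2 value minus the mean of the 2 untreated arrays of the same genotype (horizontal axis); genes run down the page by complex. Points of array 3 reach -1.08, those of array 7 reach -0.46, and those of arrays 4 and 8 lie between -0.43 and 0.25.

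The arrays differed in how far the genes lay below their own genotype's untreated mean. The median was -0.58 in array 3, with 43 genes lower, and -0.27 in array 7, with 44 lower. It was -0.046 in array 4, with 32 lower, and -0.12 in array 8, with 42 lower. The medians over all genes were -0.017, -0.041, 0.003 and -0.003 in arrays 3, 7, 4 and 8. The medians of the 2 PE arrays of a genotype thus lay farther apart than those of arrays 4 and 8 lay from their untreated hearts.

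All 4 genes of complex II were below 0, with a median of -0.34, which was -0.092 without arrays 3 and 7. Sdha, the flavoprotein that oxidizes succinate (probe set 10410625), measured 11.83, 12.72, 12.32 and 12.64 in PE arrays 3, 4, 7 and 8, against 12.73, 12.79, 12.80 and 12.69 in untreated arrays 1, 2, 5 and 6. The groups overlapped, since array 4 reached the level of the lower untreated hearts, and the difference was -0.38 (SE 0.19, limma adjusted p = 0.346). Leaving out array 3 gave -0.15 for Sdha, and leaving out both 3 and 7 gave -0.073. Sdhb, the iron-sulphur subunit, measured 11.77, 12.40, 12.25 and 12.43 in the PE arrays, against 12.49, 12.62, 12.63 and 12.52 in the untreated arrays. Every PE array was below every untreated one, and the difference was -0.35 (SE 0.14, limma adjusted p = 0.290; -0.15 without arrays 3 and 7). The membrane anchors Sdhc and Sdhd had differences of -0.33 and -0.26, both with overlapping groups, and of -0.11 and -0.015 without arrays 3 and 7.

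In complex III all 9 genes were below 0 (median -0.31, and -0.13 without arrays 3 and 7), and 6 of them had PE arrays that did not overlap the untreated ones. Uqcrq, a small subunit (probe set 10385818), measured 11.42, 12.14, 12.12 and 12.18 in PE arrays 3, 4, 7 and 8, against 12.30, 12.29, 12.46 and 12.41 in the untreated arrays. Its difference was -0.40 (SE 0.15, limma adjusted p = 0.285) and -0.20 without arrays 3 and 7. Uqcrh, the acidic hinge protein next to cytochrome c1, measured 11.44, 12.01, 11.98 and 12.02 in the PE arrays, against 12.08, 12.16, 12.31 and 12.33 in the untreated arrays. Here too no PE heart reached an untreated one (difference -0.36, SE 0.12, limma adjusted p = 0.282; -0.20 without arrays 3 and 7). The Rieske iron-sulphur protein gene Uqcrfs1, the core protein gene Uqcrc1, Cyc1 for cytochrome c1 and Uqcr11 did not overlap either, with differences of -0.35, -0.31, -0.25 and -0.31. Uqcrb had the smallest difference of the complex, -0.14, with overlapping groups.

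In complex IV 15 of 17 genes were below 0, with a median of -0.17, which was -0.079 without arrays 3 and 7. Its genes ran from -0.43 to 0.094. Without arrays 3 and 7 complexes II and III changed places in the order by median, as did IV and V. Complexes II and III had the lower medians both times, and the order was not tested. Cox7a1, the striated-muscle form of subunit 7a (probe set 10551836), measured 12.23, 13.17, 12.94 and 13.24 in PE arrays 3, 4, 7 and 8, against 13.36, 13.28, 13.34 and 13.35 in the untreated arrays. The PE arrays lay below all untreated arrays, by little in arrays 4 and 8, and the difference was -0.43 (SE 0.20, limma adjusted p = 0.313; -0.13 without arrays 3 and 7). Cox8b, the striated-muscle form of subunit 8, measured 12.36, 13.19, 12.96 and 13.20 in the PE arrays, against 13.29, 13.25, 13.36 and 13.31 in the untreated arrays. Its PE arrays had the same order as those of Cox7a1 and did not overlap the untreated ones (difference -0.38, SE 0.17, limma adjusted p = 0.318; -0.11 without arrays 3 and 7).

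Cox4i1, the common form of subunit 4, and Cox6a2, the striated-muscle form of subunit 6a, had differences of -0.35 and -0.34 with overlapping groups, since arrays 4 and 8 reached the level of untreated WT hearts. Cox5a, Cox7a2 and Cox7b did not overlap, with differences of -0.29, -0.24 and -0.19. The lung-type isoform Cox4i2 had a difference of -0.26 with overlap. The dim testis isoforms Cox6b2, Cox8c and Cox7b2 had differences of -0.15, -0.090 and -0.076, and all overlapped. That of Cox6b2 was -0.27 without arrays 3 and 7.

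The ubiquitous isoforms Cox6a1 and Cox8a were the 2 genes of the 47 with a difference above 0. Cox6a1 measured 10.84, 10.36, 10.59 and 10.37 in the PE arrays, against 10.43, 10.68, 10.35 and 10.33 in the untreated arrays. Its highest value was that of array 3, the groups overlapped, and the difference of 0.094 (SE 0.12, limma adjusted p = 0.717) was -0.079 without arrays 3 and 7. Cox8a measured 10.98, 10.94, 11.05 and 11.02 in the PE arrays, against 10.98, 10.84, 10.99 and 10.92 in the untreated arrays (difference 0.067, SE 0.059, limma adjusted p = 0.572; 0.049 without arrays 3 and 7). The 2 sets of arrays overlapped.

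In complex V all 17 genes were below 0 (median -0.23, and -0.069 without arrays 3 and 7), and 7 had no overlap between PE and untreated arrays. Atp5e, the epsilon subunit of the rotor (probe set 10490221), measured 9.11, 10.06, 9.86 and 10.13 in PE arrays 3, 4, 7 and 8, against 10.10, 10.01, 10.28 and 10.37 in the untreated arrays. Arrays 4 and 8 lay within the untreated range, and the difference was -0.40 (SE 0.20, limma adjusted p = 0.340; -0.094 without arrays 3 and 7). Atp5md, a small membrane subunit, measured 12.02, 12.60, 12.33 and 12.67 in the PE arrays, against 12.76, 12.77, 12.82 and 12.68 in the untreated arrays. No PE array reached an untreated one, although array 8 came close (difference -0.35, SE 0.14, limma adjusted p = 0.292; -0.12 without arrays 3 and 7).

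Atp5o, which encodes the protein that joins the stalk to the catalytic head, Atp5pb, the b subunit of that stalk, and Atp5c1, the gamma subunit of the rotor, had differences of -0.33, -0.27 and -0.27 with no overlap. The alpha and beta subunits of the catalytic head, Atp5a1 and Atp5b, and the membrane subunit gene Atp5j2 did not overlap either, at -0.26, -0.10 and -0.20. The genes named for lack of overlap alone, in complexes III to V, were chosen after their values were seen. Atp5k, the e subunit of the membrane part, had a difference of -0.35 with overlapping groups. Atp5d, the delta subunit, had the smallest difference of the complex, -0.024. It measured 13.45, 13.45, 13.49 and 13.48 in PE arrays 3, 4, 7 and 8, against 13.49, 13.53, 13.46 and 13.48 in the untreated arrays, so that array 3 did not stand apart for this gene.

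**Figure D2:**
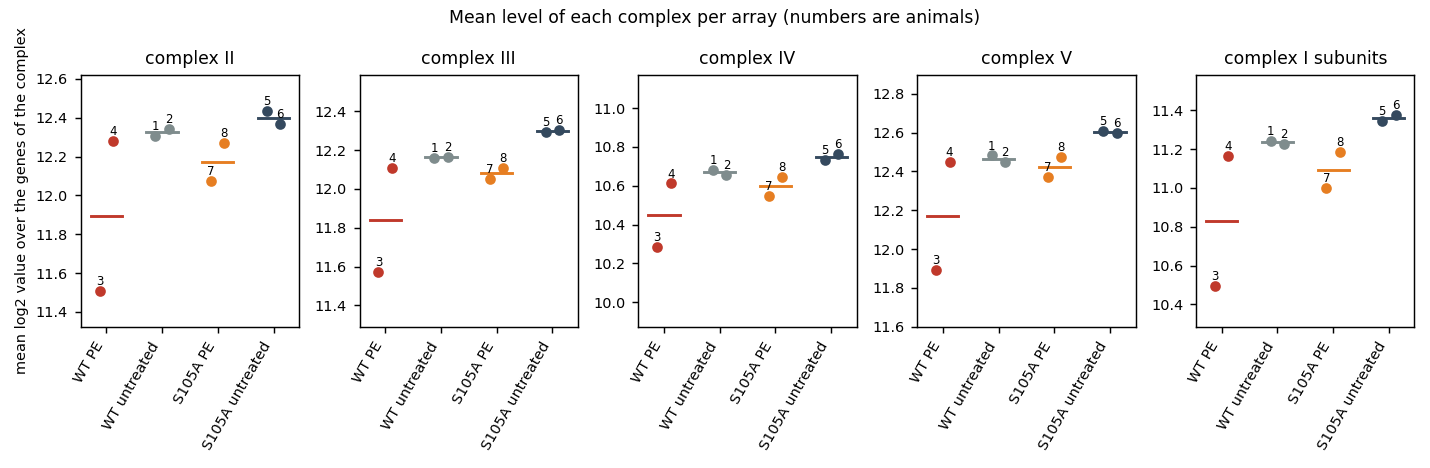
Mean log2 value over the genes of complexes II, III, IV and V and of the complex I subunits in each array (dots, numbered by animal), with horizontal lines at group means of 2 arrays; every panel spans the same log2 range. Array 3 is the lowest dot in all 5 panels, and the untreated S105A arrays 5 and 6 are the highest.

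Within the genotypes, PE and untreated hearts were compared 2 against 2. In WT, 44 of the 47 genes were below 0 with a median of -0.31, against 51.1% of all genes, and 3 were above, against 48.9%. By limma 0 passed an adjusted p of 0.05 where 0.00502% of all genes did. At an unadjusted p under 0.05, 3 were lower, against 5.76% of all genes, and 0 higher, against 5.99%. The WT PE arrays did not overlap and lay below the untreated ones in 28 genes, against 23.5% of all genes. In WT the differences of Cox7a1, Uqcrq, Cox8b and Sdha were -0.62, -0.52, -0.50 and -0.49, with limma adjusted p values of 0.419, 0.419, 0.427 and 0.456. The median over the 47 was -0.046 without array 3 and -0.58 without array 4. Without array 4, 34 genes passed by limma, a setting in which 3541 of all genes did. There the WT PE group is array 3 by itself, which has no spread of its own.

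In S105A hearts, 44 of the 47 were again below 0 (56.4% of all genes), with a median of -0.19. None passed an adjusted p of 0.05 by limma, where 0% of all genes did, and 1 was lower at an unadjusted p under 0.05, against 2.77% of all genes, and 0 were higher, against 3.09%. That count was 18 of the 47, and 2663 of all genes in either direction, when WT array 3 or 4 was left out of the fit. It was 13 of the 47, and 2192 of all genes, when only the S105A arrays were fitted. The PE arrays lay below both untreated arrays in 38 genes, against 25.2% of all genes. Among these were all 4 genes of complex II, all 9 of complex III, 12 of 17 of complex IV and 13 of 17 of complex V. The genes with the largest differences here were Atp5k (-0.41), the membrane subunit gene Atp5l (-0.39), Cox6b2 (-0.34) and Atp5e (-0.33), with limma adjusted p values of 0.772, 0.765, 0.765 and 0.785. The median was -0.12 without array 7 and -0.27 without array 8.

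The difference between the PE effects, S105A minus WT, was above 0 for 39 of the 47 genes (47.5% of all genes) and below 0 for 8 (52.5%), with a median of 0.11. None passed by limma (0% of all genes, smallest adjusted p 1), and 0 had an unadjusted p under 0.05 in either direction, against 0.903% higher and 1.52% lower of all genes. The sign of the median rested on array 3, without which it was -0.12; it was -0.070 without arrays 3 and 7 and 0.36 without array 4. The largest differences were those of Cox6b2 (-0.37, SE 0.17), Cox7a1 (0.36, SE 0.39), Uqcrc1 (0.295, SE 0.293) and Atp5g2 (0.285, SE 0.243), and those of Cox7a1 and Uqcrc1 turned to -0.10 and -0.046 without array 3.

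The isoforms of a subunit were then set against each other within each array, which cancels the brightness of a probe set when arrays are compared. Cox8b minus Cox8a was 1.38, 2.25, 1.90 and 2.18 in PE arrays 3, 4, 7 and 8, against 2.31, 2.41, 2.37 and 2.39 in untreated arrays 1, 2, 5 and 6. All 4 PE hearts had a lower difference than all 4 untreated hearts. The mean was 1.93 ± 0.39 with PE and 2.37 ± 0.042 without (SD, n = 4 each), a difference of -0.44 (exact two-sided permutation p = 0.0286, the smallest that 4 against 4 arrays allow; adjusted over the 6 pairs, p = 0.171). It was -0.16 without arrays 3 and 7. The permutations exchanged arrays between PE and untreated without keeping the genotypes apart. The pair did not pass after adjustment. Over 6 pairs, a pair that alone reaches the smallest p cannot pass, so the adjusted p could not settle this.

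Cox6a2 minus Cox6a1 was 0.29, 1.76, 1.49 and 1.78 in the PE arrays, against 1.73, 1.30, 1.95 and 2.09 in the untreated arrays. Only array 3 lay outside the range of the untreated hearts, and the difference between PE and untreated means of -0.44 (exact permutation p = 0.4, adjusted p = 0.514) was 0.005 without arrays 3 and 7. Cox7a1 minus Cox7a2 was 0.98, 1.49, 1.41 and 1.68 in the PE arrays, against 1.65, 1.53, 1.55 and 1.58 in the untreated arrays. The difference between the means was -0.19 (exact permutation p = 0.257, adjusted p = 0.514) and 0.002 without arrays 3 and 7, since array 8 lay above all untreated hearts.

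Cox4i2 minus Cox4i1 differed by 0.095 between PE and untreated means (exact permutation p = 0.714, adjusted p = 0.714), and by -0.036 without arrays 3 and 7. The 3 genes of the ATP synthase c ring encode the same mature protein with different import sequences. Over both genotypes their pairs moved least. Atp5g1 minus Atp5g3 differed by -0.035 (exact permutation p = 0.371) and Atp5g2 minus Atp5g3 by -0.045 (exact permutation p = 0.429), with adjusted p = 0.514 for both. These small values average opposite signs, -0.114 and -0.125 in WT and 0.043 and 0.034 in S105A. Their own differences between PE and untreated arrays were -0.21 for Atp5g1, -0.22 for Atp5g2 and -0.18 for Atp5g3.

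**Figure D3:**
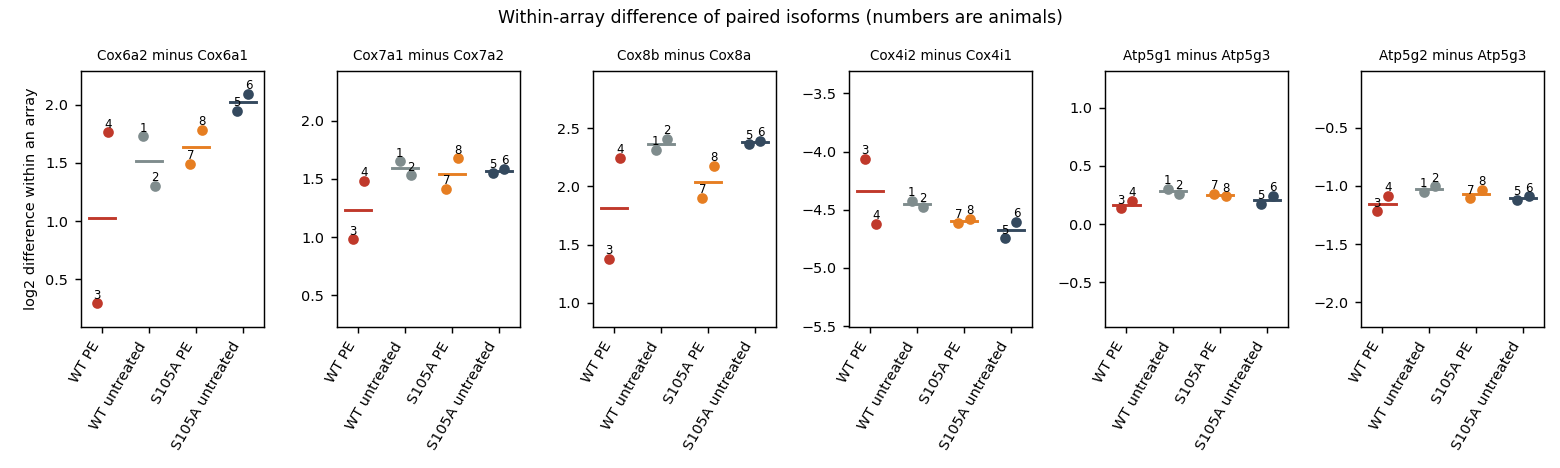
Log2 value of the first-named isoform minus that of the second within each array (dots, numbered by animal), with lines at group means of 2 arrays; every panel spans the same log2 range. For Cox8b minus Cox8a the 4 PE arrays lie between 1.38 and 2.25, below the untreated arrays at 2.31 to 2.41. The ATP synthase c ring pairs span less over the arrays, 0.135 to 0.3 for Atp5g1 minus Atp5g3 and -1.219 to -1.003 for Atp5g2 minus Atp5g3.

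The genotypes were compared without and with PE. Without PE, S105A exceeded WT in 37 of the 47 genes (50.9% of all genes), with a median of 0.061. None passed by limma (0% of all genes), and 3 were higher at an unadjusted p under 0.05, against 2.43% of all genes, and 0 lower, against 2.53%. Both S105A arrays lay above both WT arrays in 28 of the 47 (59.6%), against 21.8% of all genes. The highest differences were those of small subunits of the membrane part of complex V and of complex III, and of the testis isoform Cox6b2.

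Atp5k (probe set 10532164) measured 10.32 and 10.52 in untreated S105A hearts, against 9.80 and 9.48 in untreated WT hearts. The difference was 0.78 (SE 0.32, limma adjusted p = 0.962). With PE it measured 10.03 and 9.99 in S105A hearts, against 8.82 and 9.88 in WT hearts, a difference of 0.66 (SE 0.32, limma adjusted p = 0.989). It was the only 1 of the 47 in which all 4 S105A arrays lay above all 4 WT arrays, a share of 2.1% against 1.50% of all genes.

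Atp5l measured 11.90 and 11.88 in untreated S105A hearts, against 11.40 and 11.32 in untreated WT hearts (difference 0.53, SE 0.25, limma adjusted p = 0.962). Uqcr10, a small subunit of complex III, measured 10.47 and 10.62 in untreated S105A hearts, against 10.11 and 10.14 in untreated WT hearts (difference 0.41, SE 0.17, limma adjusted p = 0.962). In both genes the untreated genotypes did not overlap. Cox6b2 measured 6.15 and 6.18 in untreated S105A hearts, against 5.66 and 5.75 in untreated WT hearts (difference 0.46, SE 0.12, limma adjusted p = 0.962). With PE it measured 5.90 and 5.75 in S105A hearts, against 5.89 and 5.58 in WT hearts, and there the genotypes overlapped.

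Under PE, S105A exceeded WT in 44 of the 47 genes (46.9% of all genes), with a median of 0.23, while 3 were below 0 (53.1%), and 0 passed by limma (0% of all genes). No gene of the 47 had an unadjusted p under 0.05, against 1.25% higher and 1.43% lower of all genes, and the S105A arrays lay above both WT arrays in only 3 of the 47, Atp5k, Atp5d and Cox8a, against 10.5% of all genes. Without WT array 4, 19 of the 47 passed, as did 711 of all genes, and the median was 0.48. Without WT array 3 the median was -0.030, and 36 of the 47 were below 0. The differences of Cox6a2 and Atp5e, 0.49 and 0.41, were -0.006 and -0.065 without array 3. That of Sdhc was 0.40. Averaged over treatments, S105A exceeded WT in 44 of the 47 (49.1% of all genes) with a median of 0.14, and 0 passed by limma, where 0.00502% of all genes did. Of the 47, 5 were higher at an unadjusted p under 0.05, against 2.30% of all genes, namely Atp5k, Atp5l, Atp5mpl, Uqcr10 and Cox6b2, and 0 were lower, against 2.69%. The averaged differences of Atp5k, Atp5l, Cox6a2 and Uqcr10 were 0.72, 0.46, 0.39 and 0.36. Without array 4, 10 of the 47 passed, as did 225 of all genes, and the median was 0.010 without array 3.

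**Figure D4:**
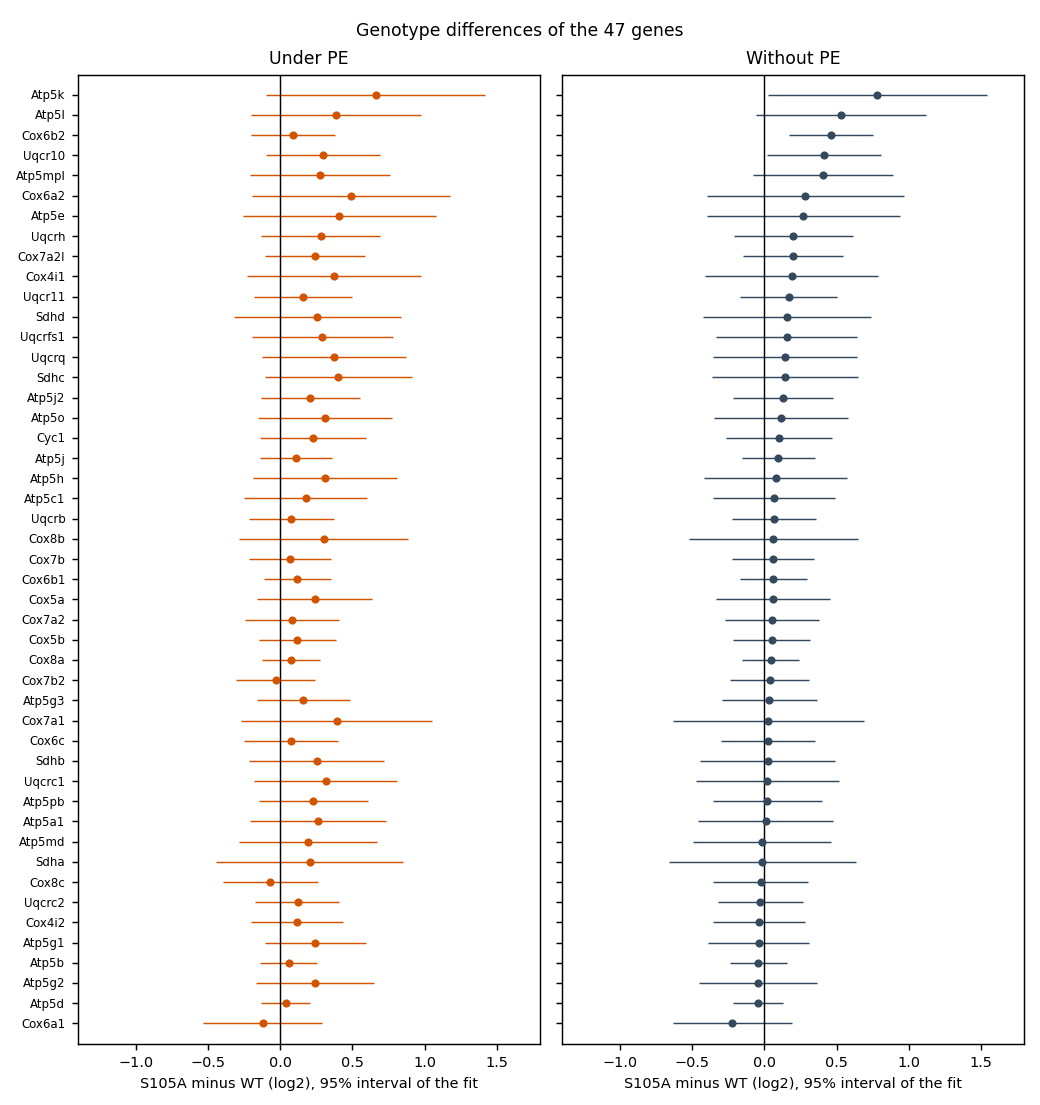
S105A minus WT log2 difference of each of the 47 genes under PE (left) and without PE (right), with 95% intervals of the limma fit that are not adjusted for the number of genes; genes run down the page by the difference without PE. Without PE the points run from -0.22 (Cox6a1) to 0.78 (Atp5k), and all 47 intervals under PE include 0.

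Other genes of the pathway were read from a list of assembly factors and partners, of which 37 of 41 were measured. With PE, averaged over genotypes, 34 were below 0 and 3 above, where 56.0% of all genes were below 0. Their median was -0.25, against -0.017 over all genes, and 0 passed by limma, where 0.00502% of all genes did. The 3 lowest were Fmc1, an assembly factor of the ATP synthase (-0.65, SE 0.36), Lrpprc, which stabilizes mitochondrial messenger RNA (-0.52, SE 0.20), and Taco1, a translational activator of a mitochondrially encoded complex IV subunit (-0.52, SE 0.18). Fmc1 measured 8.53, 10.30, 9.78 and 10.30 in PE arrays 3, 4, 7 and 8, against 10.35, 10.28, 10.40 and 10.48 in the untreated arrays, so that array 3 carried most of its difference. The 3 highest were Atpif1, which encodes an inhibitor of ATP hydrolysis by complex V, at 0.24 (SE 0.089, limma adjusted p = 0.285), and the complex IV assembly factor genes Cox19 (0.18) and Cox18 (0.14).

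Atpif1 measured 12.97, 12.80, 12.94 and 12.66 in the PE arrays, against 12.70, 12.51, 12.61 and 12.59 in the untreated arrays, with a single overlap between array 8 and array 1. The 1 mitochondrially encoded subunit gene measured, COX2, was at 13.34, 13.62, 13.51 and 13.56 in the PE arrays, against 13.63, 13.57, 13.66 and 13.71 in the untreated arrays. Its difference was -0.14 (SE 0.076, limma adjusted p = 0.377), with overlap. The 35 complex I subunit genes had a median of -0.34 and were all below 0; whether they differed from complexes II to V was not tested.

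Among all other genes, the 3 whose 8 values were most alike to the mean of the 47 were Ndufv2 (Pearson r = 0.997), Gatd3a (0.996) and Ndufb2 (0.996), and the 3 most opposite were Ankrd45 (-0.995), Babam2 (-0.993) and Ptprk (-0.992). Ndufv2 and Ndufb2 encode complex I subunits. These correlations over 8 arrays are given as a description. Array 3 had the lowest value of the first 3 genes and the highest of the other 3.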

How the data were processed

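RNA from snap-frozen hearts was labelled with biotin, per the labels' protocols. Per the submitters' processing notes the authors ran RMA, of a version not given in the sources used here, and deposited 1 log2 value per probe set (2.63 to 14.45, which is how the scale was recognised). RMA forces a common distribution on the arrays and so hides shifts common to most genes.

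Of 35557 probe sets, 21789 had 1 gene symbol in the platform annotation, 1621 several and 12147 none. Symbols were updated by Entrez identifier through the GRCm38.p6 gene table (19855 of 19938 genes matched). All genes and all 8 arrays entered 1 fit of group means with limma 3.58.1 in R 4.3.3 (4 residual degrees of freedom). Two-sided p values were adjusted (Benjamini-Hochberg) across the genes of each comparison. The fit was tried on simulated data with independent genes, each with the same spread in every array. That setting lacks an array that stands apart as array 3 does, so the trial does not cover it. Isoform pairs were tested with scipy 1.17.1, and figures drawn with matplotlib 3.10.9. Cell type markers were fixed lists. Named genes were those past the threshold, the largest and smallest per complex, the 4 largest of each other comparison, all isoform pairs, the genes most and least like the mean profile, and the extremes of the assembly list. The members and lists were chosen with earlier results of these data known. The 2 arrays of a group are separate animals. Alternatives were a filter on the 40% dimmest genes, the mean of probe sets, quantile normalization, trended and robust variance, array weights, centring on cardiomyocyte markers, fits of the compared groups alone, and leaving out arrays. The counts of genes without overlap when arrays are left out were added after seeing the data.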

Additional observations from a re-analysis of the deposited data

Results flagged for a closer look

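Atp5d, the delta subunit gene of complex V, was the 1 gene of the 47 in which every PE array of S105A lay above, and every PE array of WT below, the untreated arrays of its genotype. It measured 13.486 and 13.48 in S105A PE hearts, against 13.458 and 13.475 in untreated S105A hearts, and 13.445 and 13.446 in WT PE hearts, against 13.49 and 13.53 in untreated WT hearts. The difference between the PE effects was 0.081 (SE 0.10) and did not pass by limma (adjusted p = 1), so a difference between the genotypes was not shown.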

How the results depend on the processing

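No paired analysis was possible because the titles number the animals 1 to 8 and no number recurs between groups. The count of the 47 genes past the threshold was 0 in all but 4 of 109 alternative fits. Those 4 left out WT array 4, and leaving out 1 array at a time gave counts of 0 to 34 for PE in WT, 0 to 37 for PE averaged over genotypes, 0 to 19 for the genotypes under PE and 0 to 10 for the genotypes averaged over treatments. In these fits array 3 by itself made up the WT PE group, which then has no spread of its own. Over all genes the counts were then 3541, 4137, 711 and 225, against 0 or 1 with all arrays. Without arrays 3 and 7, 137 of all genes passed for PE averaged over genotypes, 58 for PE in WT and 30 for PE in S105A, and between 1 and 22 in the other comparisons, while 0 of the 47 passed in any. The median for PE in WT was -0.046 without arrays 3 and 7 and ran from -0.582 to -0.046 over single arrays left out. The median for the genotypes under PE ran from -0.03 to 0.481. That for the difference in PE effects ran from -0.124 to 0.363 and was -0.07 without arrays 3 and 7. The median for PE averaged over genotypes stayed below 0 under all alternatives run, between -0.384 and -0.079.

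The 38 single-gene values that passed under an alternative all came from leaving out array 4. The signs that turned were those of Atp5d for PE averaged over genotypes, at 0.06 after a further quantile normalization and 0.017 when centred on cardiomyocyte markers, and of Cox6a1, at -0.079 without arrays 3 and 7 and, over single arrays left out, -0.025 to 0.212. Without array 3, further signs turned, so that over single arrays left out Cox6a2 ran from -0.006 to 0.986 and Atp5e from -0.065 to 0.884 for the genotypes under PE, and Cox7a1 from -0.101 to 0.83 and Uqcrc1 from -0.046 to 0.636 for the difference in PE effects. The cause was not tested. Without arrays 3 and 7, the isoform pairs Cox6a2 minus Cox6a1 (0.005), Cox7a1 minus Cox7a2 (0.002), Atp5g2 minus Atp5g3 (0.005) and Cox4i2 minus Cox4i1 (-0.036) changed sign. Leaving out single arrays, the pair of Cox4i2 and Cox4i1 ran from -0.04 to 0.145, while Cox8b minus Cox8a stayed between -0.55 and -0.261. With fewer than 8 arrays the pairs have no test that could pass. The count of 19 genes without overlap ran from 19 to 25 over single arrays left out. It could not fall below 19, because leaving out an array only relaxes the condition.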

Other observations

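Several genes were read by more than 1 probe set, and these gave differences of the same sign but not always of like size. The 6 probe sets of Atp5l had differences between PE and untreated arrays of -0.338 to -0.316, although their mean levels ran from 11.03 to 11.47. The 3 probe sets of Atp5g2 had differences of -0.21 to -0.23, and the 3 of Atp5h differences of -0.208, -0.264 and -0.309 at mean levels of 12.95, 12.43 and 12.31. For Cox7b the brighter probe set (mean 13.29) gave -0.191 and the dimmer (12.48) gave -0.278, and for Uqcr11 the brighter (12.02) gave -0.31 and the dimmer (11.27) -0.419. In Atp5h, Cox7b and Uqcr11 the brightest probe set, the one used above, thus gave the smallest difference. It also did so in Cox5b (-0.117 against -0.142), Atp5md (-0.353 against -0.364 and -0.373) and, by little, Atp5g1 (-0.213 against -0.216). In Cox6c, Cox7a2l and Atp5pb it gave the larger one. In Atp5g2, Atp5l and Uqcrb its difference lay between those of the other probe sets. Probe sets of the same gene can also pick up its processed copies elsewhere in the genome, which was not tested.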
